A study of Mus musculus with 8 samples.

Results

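Chromatin contacts of the *Ikzf1* promoter were compared between P5424 cells stimulated with PMA and ionomycin (PMA/ionomycin) and unstimulated cells, in wt cells and in cells that lack the enhancer IkE120 (ΔIkE120). The libraries were chosen by their labels, which give the assay, the line, the genotype and the stimulation, and they were 4 of the 8 samples of the series, which held 6 4C samples. P5424 is a mouse T-cell precursor line, and the ΔIkE120 cells were a homozygous CRISPR deletion line of 1 clone. Stimulated cells had 20 µg/ml PMA and 0.5 µg/ml ionomycin for 6 h, and the headers of the unstimulated files name DMSO. Each combination of genotype and state had 1 library, so there were 2 stimulated libraries against 2 unstimulated ones, paired by genotype.

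In 4C-seq, chromatin is crosslinked, cut and religated, and the fragments joined to 1 chosen fragment, the bait, are amplified and sequenced, so that reads on a fragment record its contacts with the bait. *Ikzf1* encodes Ikaros, a zinc finger factor that lymphocyte precursors need for normal development, and its promoter is served by clusters of DNase hypersensitive sites (DHSs) with enhancer activity upstream and inside the gene. PMA activates protein kinase C and ionomycin raises intracellular calcium, so the pair mimics signalling through the T-cell receptor, which acts through AP-1, NF-κB and NFAT.

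The bait lay at chromosome 11 position 11583520 (mm9). The wt unstimulated library had 1985101 reads on the chromosome, the wt stimulated library 1707615, the ΔIkE120 unstimulated library 3943018 and the ΔIkE120 stimulated library 2568897. Of these, 12.2%, 10.6%, 15.2% and 15.2%, in the same order, fell within 15 kb of the bait and were left out. All read shares below are percentages of the remaining reads, and in all lists of 4 values the order is wt unstimulated, wt stimulated, ΔIkE120 unstimulated, ΔIkE120 stimulated. A fragment with at least 1 read is called covered, and covered fragments over 15 kb away numbered 6523, 5495, 6841 and 7332. A covered fragment counts once whatever its PCR copies, whereas read shares carry them, since the reads have no molecular identifiers, and the intervals below cover counting error only.

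The libraries stood apart in complexity. The median covered fragment had 30 reads in the wt unstimulated library and 68, 78 and 70 in the others, and the 10 fragments with most reads held 8.13%, 5.22%, 5.42% and 4.04% of the reads. The wt unstimulated library was thus the 1 with the fewest reads per covered fragment and with most reads on its top fragments.

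The libraries of 1 genotype also shared weakly covered fragments. Over 10 Mb from the bait, 193 fragments were covered in both wt libraries (6.58% of those of the unstimulated and 7.07% of those of the stimulated library) and 228 in both ΔIkE120 libraries (7.34% and 6.26%), whereas P5424 libraries of unlike genotype shared 123 to 160. Fragments with at most 5 reads in the unstimulated library and at least 200 in the stimulated 1 numbered 46 in wt and 49 in ΔIkE120 cells, and the reverse 7 and 28. Across genotypes the P5424 pairs had 2 to 10 such fragments. Whether reads had passed between libraries was not tested, so results were also computed without every fragment that had under 1% of the reads it had in the other library of its genotype. This left out 104, 42, 123 and 70 fragments over 15 kb away, with 156, 288, 213 and 263 reads.

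The genotypes matched their labels. The fragment at chr11:11464326-11464549, inside the 285 bp that lie between the cut sites computed here from the guide positions, had 1922 reads in wt unstimulated and 366 in wt stimulated cells and 0 in both ΔIkE120 libraries. The next fragment, to position 11465210, had 4132 and 3720 reads in wt cells and again 0 in both ΔIkE120 libraries. The study describes a slightly longer deletion than the computed one.

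The first question was whether stimulation shifted contacts between short and long range. Fragments over 10 Mb from the bait, which all lay downstream, held 20.1% of reads without and 29.6% with stimulation in wt cells, and 19.7% without and 25.9% with it in ΔIkE120 cells. Both stimulated libraries were above both unstimulated libraries. The log2 ratio of stimulated to unstimulated was 0.56 in wt and 0.40 in ΔIkE120 cells, with a mean of 0.48 ± 0.12 (SD over 2 genotypes). The unstimulated libraries of the 2 genotypes differed by less than the stimulated and unstimulated library of either genotype did. With 2 pairs, an exact permutation within genotype cannot give a two-sided p below 0.5, so that test could not pass 0.05.

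Covered fragments moved the same way by a smaller amount. The share of covered fragments that lay over 10 Mb away was 44.9% (exact 95% interval 43.7 to 46.2) without and 49.7% (48.3 to 51.0) with stimulation in wt cells, and 45.4% (44.2 to 46.6) without and 49.6% (48.5 to 50.8) with it in ΔIkE120 cells. The unstimulated libraries overlapped each other, the stimulated libraries overlapped each other, and the intervals of the 2 states did not overlap. The log2 ratios were 0.14 and 0.13, and they were 0.15 and 0.13 without the fragments under 1%. These are shares. The number of such fragments was 2931, 2729, 3107 and 3640, which fell in wt and rose in ΔIkE120 cells with stimulation, so the share rose in wt cells while fewer fragments were covered at all.

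Part of the read difference was in reads per fragment. Over 10 Mb away the median covered fragment had 19 reads in wt unstimulated cells and 46, 46 and 42 in the others, and the 10 fragments with most reads held 13.5%, 6.03%, 4.31% and 4.09% of those reads. When only fragments with at least 200 reads were counted as covered, the share over 10 Mb was 26.99%, 40.1%, 34.6% and 37.8%. The order of the states within each genotype stayed, but at this threshold the ΔIkE120 unstimulated library was nearer to its stimulated partner (log2 ratio 0.13) than the wt unstimulated library was to its own (0.57).

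The rise in read share was seen along the whole distal arm. From 60 to 80 Mb from the bait the libraries held 2.02%, 3.69%, 2.30% and 3.50% of reads, and over 80 Mb 0.995%, 2.36%, 1.36% and 1.99%. Both stimulated libraries were above both unstimulated libraries in each of these classes. The log2 ratios were 0.87 and 0.61 from 60 to 80 Mb and 1.25 and 0.54 over 80 Mb, against 0.25 and 0.46 from 10 to 20 Mb. For covered fragments the ratio from 10 to 20 Mb was -0.10 in wt and 0.02 in ΔIkE120 cells, so the gain in covered fragments was not seen there in both genotypes.

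**Figure D1:**
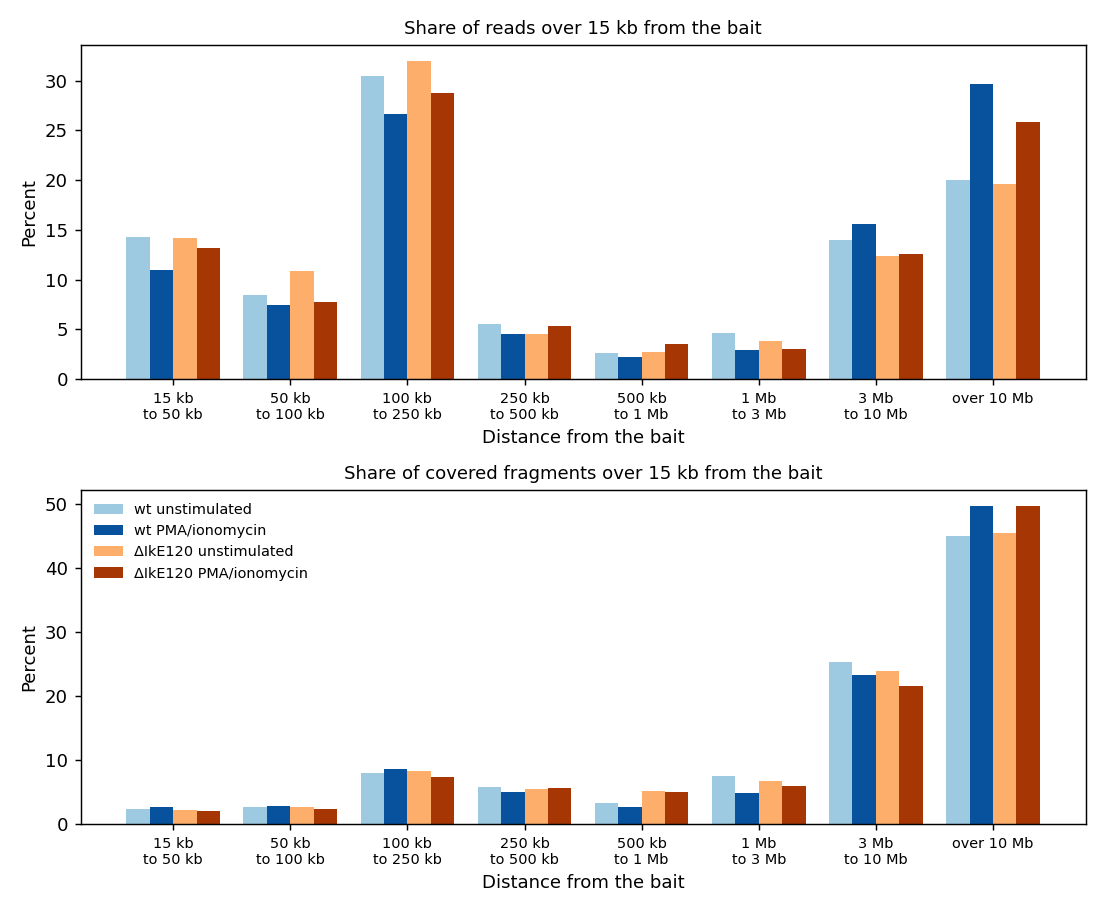
Percent of reads (top) and of covered fragments (bottom) over 15 kb from the bait in each distance class, 1 bar per library, 4 libraries. Over 10 Mb from the bait both stimulated libraries (29.6% and 25.9% of reads) stand above both unstimulated libraries (20.1% and 19.7%), and from 1 to 3 Mb they stand below.

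The opposite shift occurred from 1 to 3 Mb. That class held 4.61% of reads without and 2.94% with stimulation in wt cells, and 3.81% without and 3.02% with it in ΔIkE120 cells, a log2 ratio of -0.65 in wt and -0.33 in ΔIkE120 cells. Most of it was on the downstream side, past the 3′ end of *Ikzf1*, where the shares were 1.69%, 0.597%, 1.20% and 0.568%. There the stimulated libraries lay close to each other and well below both unstimulated libraries, with log2 ratios of -1.50 and -1.08 and a mean of -1.29 ± 0.29. Covered fragments in the same downstream stretch numbered 162, 58, 134 and 101, or 2.48%, 1.06%, 1.96% and 1.38% of all covered fragments. The stimulated libraries were again the lower ones, and the fall of the share was larger in wt (-1.23) than in ΔIkE120 cells (-0.51). Upstream, the read shares from 1 to 3 Mb were 2.92%, 2.34%, 2.61% and 2.45%, a smaller fall of the same direction (-0.32 and -0.09).

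From 3 to 10 Mb reads and covered fragments went apart. The libraries had 14.0%, 15.6%, 12.3% and 12.5% of reads there (log2 ratios 0.16 and 0.02) and 25.4%, 23.3%, 23.9% and 21.6% of covered fragments (-0.12 and -0.14). The share of covered fragments fell in both genotypes, while the share of reads rose in wt cells and hardly moved in ΔIkE120 cells (-0.02 with capped reads). Downstream of the bait alone the read shares were 5.72%, 5.77%, 5.08% and 4.51% (0.01 and -0.17).

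Within 1 Mb of the bait the read shares fell or split by genotype. From 100 to 250 kb, the class that holds most of the upstream enhancer cluster, the libraries had 30.4%, 26.6%, 32.0% and 28.8% of reads, and from 50 to 100 kb 8.48%, 7.40%, 10.8% and 7.78%. In both classes each stimulated library was below both unstimulated libraries. The log2 ratios were -0.19 and -0.15 from 100 to 250 kb and -0.20 and -0.48 from 50 to 100 kb. From 250 to 500 kb (5.56%, 4.55%, 4.51% and 5.35%) and from 500 kb to 1 Mb (2.63%, 2.24%, 2.71% and 3.49%) wt cells fell and ΔIkE120 cells rose with stimulation, so no direction was shared in reads. The share of covered fragments also split from 250 to 500 kb (-0.17 in wt and 0.05 in ΔIkE120 cells) and fell in both genotypes from 500 kb to 1 Mb (-0.26 and -0.05). Covered fragments from 100 to 250 kb numbered 524, 476, 564 and 547, from 50 to 100 kb 174, 161, 180 and 171, and from 15 to 50 kb 157, 151, 157 and 154. In each class the number was lower with stimulation in both genotypes, and most fragments were covered in each library. As shares of all covered fragments, whose total was smaller in the wt stimulated library, these classes rose in wt and fell in ΔIkE120 cells (0.11 and -0.14 from 100 to 250 kb).

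Distal covered fragments of stimulated cells also lay more often near gene starts. Among covered fragments over 1 Mb from the bait, 23.1% (exact 95% interval 22.0 to 24.3) without and 27.9% (26.6 to 29.3) with stimulation in wt cells, and 24.3% (23.1 to 25.5) without and 28.2% (27.1 to 29.4) with it in ΔIkE120 cells were within 10 kb of the start of a protein-coding gene. The intervals of the stimulated libraries overlapped each other and lay above those of both unstimulated libraries. Of all fragments over 1 Mb away, 21.9% lie that near to a start, so every library was above this level. The log2 ratio was 0.27 in wt and 0.22 in ΔIkE120 cells, with a mean of 0.25 ± 0.04, and the mean was again 0.25 without the fragments under 1% and when every library was thinned to the smallest, both chosen after seeing the data. Over 10 Mb away alone the shares were 25.8% (24.3 to 27.5), 29.0% (27.3 to 30.8), 26.0% (24.4 to 27.6) and 29.9% (28.4 to 31.4), with 23.6% for all fragments. The stimulated libraries were again the higher ones, but the intervals of the wt libraries overlapped, and the mean log2 ratio was smaller (0.19 ± 0.02). The share lying inside gene bodies was 50.6%, 53.3%, 51.3% and 52.3% over 1 Mb away (log2 ratios 0.07 and 0.03) and 56.7%, 56.5%, 56.5% and 56.1% over 10 Mb away, where it was above the 49.3% of all fragments. It rose slightly in both genotypes in the wider range and did not rise over 10 Mb away.

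Bins of 1 Mb showed where along the chromosome these changes fell. Covered fragments were counted in 118 bins over 1 Mb from the bait and tested with edgeR, with genotype as a block. It called 0 bins at an adjusted p under 0.05 (0.0%), and 8 had an unadjusted p under 0.05 (6.78%), of which 3 were higher and 5 lower with stimulation. With TMM factors edgeR called 3 bins, all lower, starting at 8000001, 13000001 and 17000001. Without the fragments under 1% it called 2, at 8000001 and 13000001. Fits that left out 1 library had no genotype block and a lone library on 1 side, so genotype and state were partly mixed in them. Without the ΔIkE120 unstimulated library the edgeR estimate was -1.17 for the bin at 13000001 and 1.66 for the bin at 87000001.

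The bin from 13000001 to 14000000, within the stretch of downstream loss, had 85, 30, 71 and 44 covered fragments. Both stimulated libraries were below both unstimulated ones, with log2 ratios of -1.24 and -0.81 and an edgeR estimate of -1.02 ± 0.19 (SE; adjusted p 0.233). The neighbouring bin from 14000001 had 55, 24, 48 and 35 covered fragments (-0.93 and -0.57). Neither bin held a protein-coding gene. The third bin with a large fall, from 18000001 to 19000000, held *Meis1*, which encodes a homeobox factor, and had 37, 18, 36 and 22 covered fragments (-0.77 and -0.82). These bins fell in both genotypes, none past the threshold of the edgeR test.

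Among bins with at least 100 covered fragments in all, those with the largest rises held many genes. The bin from 59000001 to 60000000, with 24 protein-coding genes, had 15, 35, 23 and 31 covered fragments (1.44 and 0.30). The bin from 50000001, with 25 genes, had 35, 46, 41 and 60 (0.64 and 0.42), and the bin from 74000001, with 20 genes, had 30, 29, 22 and 46 (0.20 and 0.92). In the bins from 59000001 and 50000001 both stimulated libraries were above both unstimulated ones, and in the bin from 74000001 the wt stimulated library was below the wt unstimulated 1 as a count and above it only as a share.

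Of 56 bins with at least 100 covered fragments, 38 moved in the same direction in both genotypes, 21 up and 17 down, and the log2 ratios of the genotypes had a Pearson r of 0.48 over these bins, which lie on 1 chromosome and share their libraries. A relation to gene content was looked at after these values were seen. Bins higher in both genotypes had a median of 18 protein-coding genes and bins lower in both a median of 3. Over the 56 bins, r between the number of genes and the log2 ratio was 0.66 in wt and 0.34 in ΔIkE120 cells. Over the 31 of these bins more than 20 Mb away, r was 0.57 in wt and 0.08 in ΔIkE120 cells, so in ΔIkE120 cells the relation rested on the nearer bins. By distance, also grouped after the values were seen, each of the 6 bins from 1 to 7 Mb downstream was lower in both genotypes, whereas of 50 bins over 60 Mb downstream 27 were higher and 4 lower in both.

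**Figure D2:**
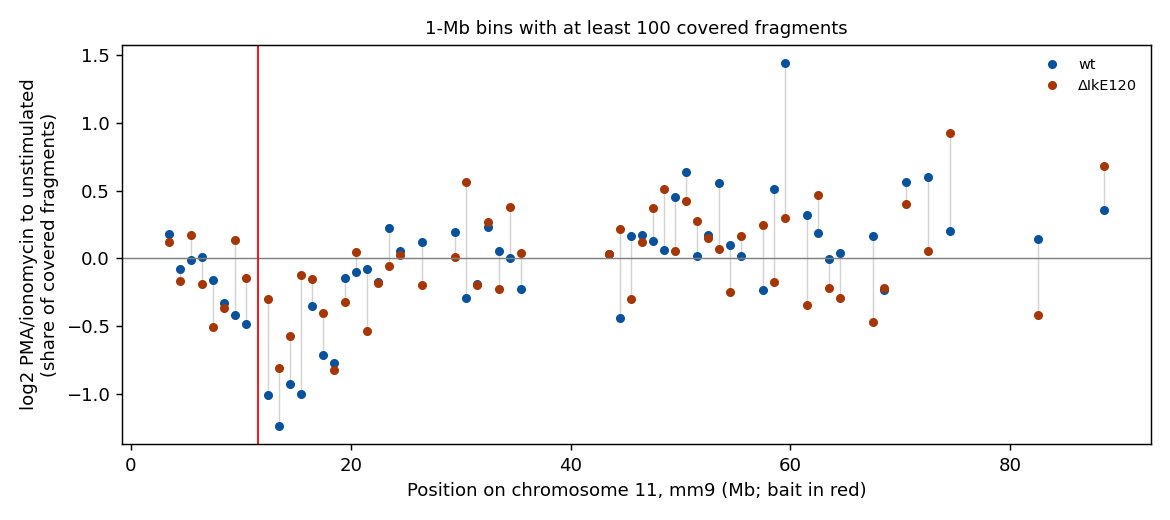
Log2 ratio of stimulated to unstimulated cells of the share of covered fragments in each 1-Mb bin with at least 100 covered fragments, against position on chromosome 11, with 1 point per genotype and a line joining the points of a bin. Just downstream of the bait the points of both genotypes lie below 0, and 38 of the 56 bins have the same sign in both.

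The next question was which stretches within 1 Mb changed in both genotypes. Reads were summed in 20-kb tiles anchored at the bait, and 95 of 98 tiles had at least 10 covered fragments over the 4 libraries. With edgeR and genotype as a block, 0 tiles were called at an adjusted p under 0.05 (0.0%; smallest adjusted p 0.371), 6 had an unadjusted p under 0.05 (6.32%; 2 higher, 4 lower), and limma on quantile normalized values called 0. DESeq2 called 6 tiles (6.32%), 2 higher and 4 lower. For genotype, the same edgeR fit called 0 tiles (0.0%), with 4 at an unadjusted p under 0.05. On covered fragments in place of reads, edgeR called 3 tiles for genotype, all higher in ΔIkE120 cells and adjacent, starting at 12083521, 12103521 and 12123521. It called 0 for stimulation, with 2 at an unadjusted p under 0.05. The common dispersion, the spread beyond counting error, was 9.8e-05 in that fit and 0.71 in the fit of reads. Its calls thus weigh differences against little more than counting error.

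Counted by size, 16 tiles (16.8%) were at least 1.5-fold higher in stimulated cells of both genotypes and 8 (8.42%) at least 1.5-fold lower, while 14 passed 1.5-fold in opposite directions. The balance of directions depended on the scaling, with 11 higher and 12 lower after quantile normalization and 20 and 7 when scaled to reads from 15 kb to 1 Mb. The same count for genotype within both states was 21 higher (22.1%) and 5 lower (5.26%) in ΔIkE120 cells. Changes shared by the genotypes were slightly fewer than differences between the genotypes, 24 against 26. The order of these counts depended on the setting, with 23 against 21 after quantile normalization and 20 against 28 in tiles moved by 10 kb. Both stimulated libraries were above both unstimulated ones in 19 tiles (20.0%) and below in 16 (16.8%). For genotype both ΔIkE120 libraries were above both wt libraries in 29 tiles (30.5%) and below in 9 (9.47%). These counts too moved with the scaling. For stimulation they were 16 above and 22 below after quantile normalization, and 27 and 11 when scaled to reads from 15 kb to 1 Mb. For genotype they were 16 above and 13 below with TMM factors, and 16 and 16 with DESeq2 size factors. Tiles past 1.5-fold were thinly covered, with a median of 27.5 covered fragments over the 4 libraries against 46 in other tiles. Counted by covered fragments in place of reads, 3 tiles passed 1.5-fold in the same direction for stimulation and 13 for genotype.

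Distance divided the tiles. In the 22 tiles within 250 kb, 17 moved in the same direction in both genotypes, and r between the log2 ratios of the genotypes was 0.38. Both stimulated libraries were below both unstimulated ones in 9 and above in 1. The counts use shares of all reads over 15 kb away, of which less lay within 1 Mb in both stimulated libraries (61.3%, 51.8%, 64.2% and 58.6%). Scaled to reads from 15 kb to 1 Mb, fewer of the 22 tiles fell in both genotypes. The tile from 11643521, for example, went from -0.11 and -0.40 to 0.13 and -0.26. In the 73 tiles from 250 kb to 1 Mb, 43 had the same sign and r was 0.11, with 16 higher and 7 lower by 1.5-fold in both. These values describe tiles that share libraries and neighbours.

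The tile with IkE180, the outermost active DHS of the upstream cluster, rose in both genotypes. At chr11:11403521-11423520 it held 2.88% of reads without and 3.79% with stimulation in wt cells, and 2.87% without and 3.78% with it in ΔIkE120 cells. The genotypes were alike in each state and both stimulated libraries were higher. In shares of all reads over 15 kb away, it was the 1 tile within 250 kb of which this was true. The edgeR estimate was 0.40 ± 0.10 (SE; adjusted p 0.371), in 2 of 2 genotypes. With reads per fragment capped at the 99th percentile the log2 ratio of the tile was 0.00 in wt and 0.31 in ΔIkE120 cells, so in wt cells the rise rested on the fragments with most reads. The adjacent tile on the outer side rose by less (0.16 and 0.12) and that on the inner side split by genotype. Tiles that fell in both genotypes began beyond them on each side. Scaled to reads from 15 kb to 1 Mb, the IkE180 tile had log2 ratios of 0.64 in wt and 0.53 in ΔIkE120 cells. On that scale it did not stand alone. The tile from 11703521 had 0.61 and 0.62, and the tile with IkE+15 had 0.32 and 0.19.

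The tile with IkE120, or with its deletion, had 6.92%, 5.93%, 8.20% and 6.05% of reads (chr11:11463521-11483520). Both stimulated libraries were below both unstimulated ones, by an edgeR estimate of -0.33 ± 0.08 (adjusted p 0.371), and the fall was present in cells without IkE120. In wt cells it depended on the scaling, with a log2 ratio of -0.22 here, 0.14 after quantile normalization and 0.02 when scaled to reads from 15 kb to 1 Mb, against -0.25 and -0.31 in ΔIkE120 cells under these 2 scalings. The next tile toward IkE180, from 11443521, which holds DHSs without enhancer activity and was singled out after its values were seen, had 5.98%, 4.03%, 5.86% and 4.18%. Here the genotypes were alike in each state, and the stimulated libraries were again lower (-0.53 ± 0.08, with adjusted p 0.371 by edgeR and 0.033 by DESeq2). The fall was smaller after quantile normalization (-0.26 and -0.28) and with capped reads (-0.27 and -0.30). The gene body of *Gm11998*, a transcript with no known protein that spans IkE120, held 9.77%, 7.10%, 10.3% and 7.27% of reads, a log2 ratio of -0.46 in wt and -0.51 in ΔIkE120 cells, and it was covered about equally in all libraries (55, 54, 53 and 53 fragments).

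The other tiles with active DHSs moved less evenly. The tile with IkE155 (from 11423521) had 3.95%, 2.77%, 3.66% and 4.13%, lower in wt and higher in ΔIkE120 cells with stimulation. The tile with IkE25 (from 11543521) had 5.81%, 3.21%, 5.18% and 4.52%, lower mostly in wt cells (-0.86 and -0.20; adjusted p 0.555), and almost in wt cells alone after quantile normalization (-0.64 and -0.02). The tile with IkE+15, inside *Ikzf1* (from 11603521), had 3.07%, 3.24%, 3.67% and 3.83%, a difference between states (0.07 ± 0.09) smaller than that between genotypes. The difference between states was larger after quantile normalization (0.31 in wt and 0.16 in ΔIkE120 cells) and reversed with capped reads (-0.18 and -0.11). At the 3′ end of *Ikzf1* the tile from 11663521, singled out after its values were seen, fell from 2.45% to 1.32% and from 2.65% to 1.70% (-0.76 ± 0.15; adjusted p 0.371 by edgeR, 0.019 by DESeq2).

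**Figure D3:**
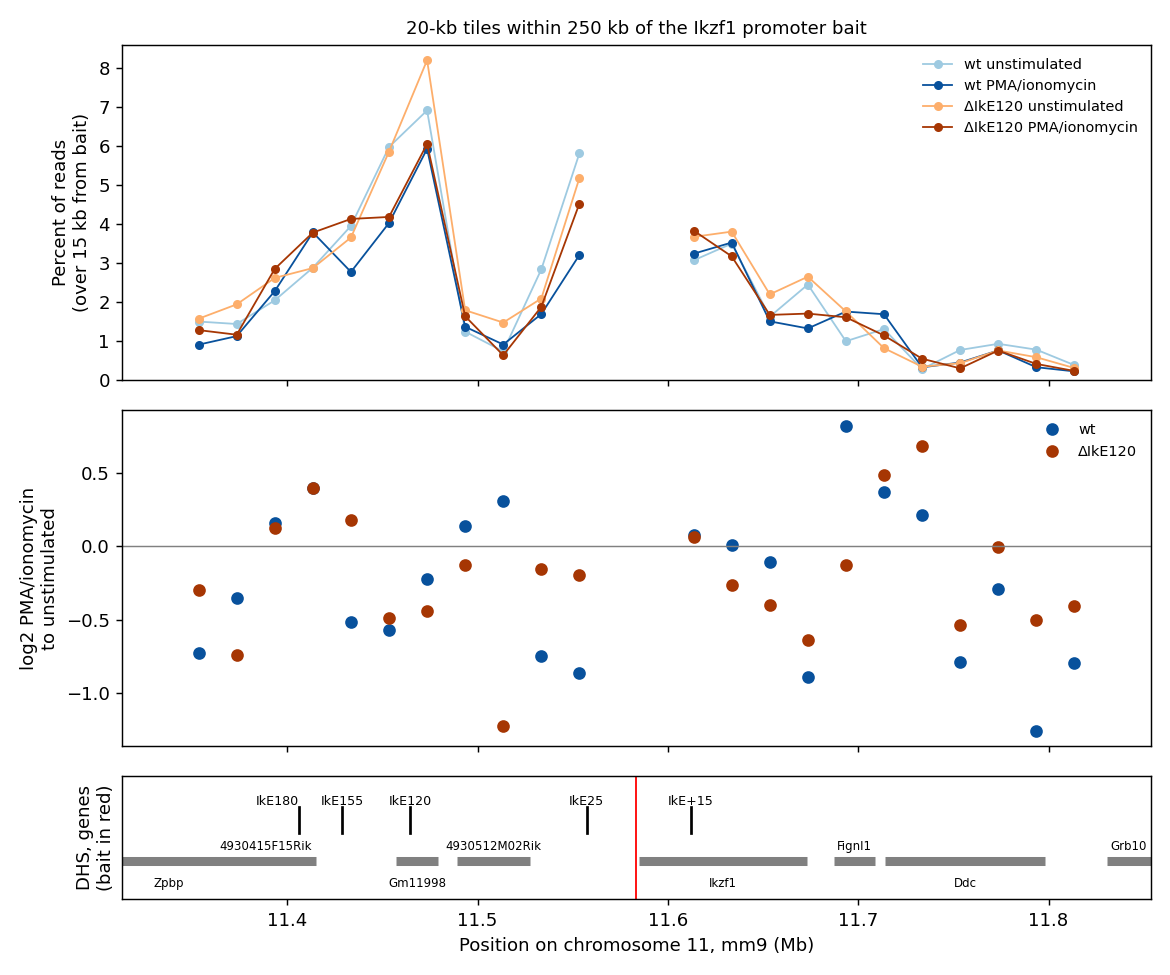
Percent of reads in 20-kb tiles within 250 kb of the bait in the 4 libraries (top), log2 ratio of stimulated to unstimulated cells per genotype (middle), and active DHSs and genes (bottom), against position on chromosome 11. The tile with IkE180 is higher (0.39 in wt, 0.40 in ΔIkE120 cells), and the tile with IkE120 lower, in both genotypes on this scale; after quantile normalization the IkE120 tile was not lower in wt cells (0.14).

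Windows centred on the DHSs, 10 kb to either side, moved the signal between neighbours. The IkE180 window held 2.27%, 3.45%, 3.36% and 3.70% of reads. Stimulated libraries were above unstimulated ones, but ΔIkE120 unstimulated cells were nearer to the stimulated libraries than to wt unstimulated cells, and the log2 ratios were uneven (0.60 and 0.14; mean 0.37 ± 0.33). The IkE120 window held 8.81%, 6.98%, 9.07% and 6.38%, with log2 ratios of -0.34 and -0.51 and a mean of -0.42 ± 0.12, and the mean was -0.44 without the fragments that the deletion removes or cuts. After quantile normalization the ratios were 0.06 in wt and -0.28 in ΔIkE120 cells, so the fall was then in ΔIkE120 cells alone. Since more reads lay over 10 Mb away after stimulation, the windows were also scaled to reads from 15 kb to 1 Mb, an alternative chosen after seeing the data. IkE120 then had log2 ratios of -0.09 and -0.37 and IkE180 of 0.85 and 0.27, so on this scale the fall at IkE120 was smaller and the rise at IkE180 larger. The IkE180 window had 34 of 36 fragments covered in each library and the IkE120 window 46, 46, 44 and 44 of 47, so covered fragments could not show a difference there.

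The sequences of 4 active DHSs that lie in these tiles are given because their tiles rose (IkE180), fell (IkE120, IkE25) or split by genotype (IkE155). They are on the plus strand of mm9, and capitals mark matches on either strand to TGANTCA (AP-1), TGGAAA (NFAT), TGTGGT (Runx), CAGNTG (E-box) or CAGGAA (Ets). IkE180 lies at chr11:11406270-11406453 in an intron of *4930415F15Rik*, and IkE120, of which 300 bases are given, at chr11:11464298-11464597 in an intron of *Gm11998*. IkE155 lies at chr11:11428864-11429017 between genes, and IkE25 at chr11:11557248-11557441 in an intron of *Gm11999*.
IkE180: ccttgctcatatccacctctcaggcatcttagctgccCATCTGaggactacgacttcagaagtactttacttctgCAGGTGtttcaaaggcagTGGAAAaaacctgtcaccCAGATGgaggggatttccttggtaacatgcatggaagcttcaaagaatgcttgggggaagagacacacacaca
IkE120: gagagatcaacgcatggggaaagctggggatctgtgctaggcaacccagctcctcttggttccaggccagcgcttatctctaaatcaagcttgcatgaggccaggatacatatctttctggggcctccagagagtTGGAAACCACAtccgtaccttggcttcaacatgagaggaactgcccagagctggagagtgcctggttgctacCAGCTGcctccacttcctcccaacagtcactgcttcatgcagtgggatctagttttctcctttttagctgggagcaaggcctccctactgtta
IkE155: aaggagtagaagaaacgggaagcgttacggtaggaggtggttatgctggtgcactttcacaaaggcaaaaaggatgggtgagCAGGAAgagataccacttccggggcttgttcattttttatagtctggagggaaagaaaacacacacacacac
IkE25: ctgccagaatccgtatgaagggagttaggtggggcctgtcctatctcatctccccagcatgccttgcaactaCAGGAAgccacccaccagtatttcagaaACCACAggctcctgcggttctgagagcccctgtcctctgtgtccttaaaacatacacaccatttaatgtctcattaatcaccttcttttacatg

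TGANTCA had 0 matches in each, where 4.69% to 8.94% of windows of the same lengths within 1 Mb of the bait hold it. IkE180 had 1 TGGAAA (in 21.5% of windows) and 3 CAGNTG (at least 1 in 33.8% and at least 3 in 1.11% of windows). IkE120 had 1 TGGAAA (32.6%), 1 TGTGGT on the minus strand that overlaps it (19.6%) and 1 CAGNTG (49.0%). IkE155 had 1 CAGGAA (15.6%), and IkE25 had 1 CAGGAA (19.3%) and 1 TGTGGT on the minus strand (13.1%). These are matches of letters, and no binding was measured.

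Farther out, the tiles with the largest shared ratios rested on few fragments. The highest, from 12043521, had 31, 1407, 23 and 606 reads on 10 covered fragments over the 4 libraries (log2 ratios 5.62 and 5.15; edgeR 5.51 ± 1.38, adjusted p 0.371; DESeq2 adjusted p 0.013). Tiles from 12383521 (5, 164, 38 and 510 reads) and 10843521 (86, 3486, 814 and 2529 reads) were also higher in both genotypes. In these 3 tiles stimulated libraries were above unstimulated ones on 10 to 32 covered fragments. The tile from 10903521 had 633, 1662, 389 and 2529 reads. The tile from 12023521 had 12, 414, 1000 and 718 reads, so its rise was in wt cells.

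Among tiles with the largest falls, that from 10803521 had 4340, 190, 584 and 7 reads on 15 covered fragments (-4.31 and -5.38; edgeR -5.01 ± 1.15, adjusted p 0.371; DESeq2 adjusted p 2.1e-04). A tile in *Cobl*, which encodes an actin nucleator, from 12163521, had 7124, 500, 4493 and 851 reads (-3.64 and -1.78; DESeq2 adjusted p 0.012). In both tiles the stimulated libraries were the lower ones within each genotype. A second tile in *Cobl*, from 12303521, had 930, 9, 3111 and 1963 reads. Tiles from 12443521 (353, 0, 1620 and 430 reads) and 10663521 (479, 0, 1569 and 935 reads) had no read in wt stimulated cells. Their 0 covered fragments there allow up to 3, each of which could hold many reads. Their falls, and that of the second *Cobl* tile, were mostly in wt cells.

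Genes within 1 Mb showed shared changes in few cases. *Ikzf1* itself held 10.0%, 10.2%, 13.0% and 10.9% of reads, no change in wt (0.02) and a fall in ΔIkE120 cells (-0.25). *Fignl1*, which encodes an ATPase with a part in DNA repair and is the next gene downstream, held 1.00%, 1.85%, 1.29% and 1.57%. Both stimulated libraries were above both unstimulated ones at *Fignl1*, by 0.89 in wt and 0.28 in ΔIkE120 cells, while covered fragments (38, 35, 44 and 42) did not rise. *Ddc*, which encodes a decarboxylase of amine synthesis, had log2 ratios of -0.27 and -0.02, and *Grb10*, which encodes a signalling adaptor, -0.41 and 0.03. *Zpbp*, a sperm protein gene, had -0.64 and 0.10, *Cobl* -0.80 and 0.46, *Vwc2* 0.00 and 0.42, *4930415F15Rik* 0.09 and -0.06, and *4930512M02Rik* -0.01 and -0.52. For these 7 genes the genotypes differed by more than any change they shared. *Gm17624*, with 1 fragment, had 0 reads in each library, which is too few fragments to tell whether contact was absent.

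Genes of T-cell activation on the same chromosome were looked at in windows of 100 kb to either side, over 1 Mb from the bait. Windows of 14 activation genes held 93, 108, 107 and 107 covered fragments in all, or 1.83%, 2.53%, 2.06% and 1.89% of distal covered fragments. The wt stimulated library was the highest and the other 3 were alike, with log2 ratios of 0.46 and -0.12. In reads the same windows held 2.08%, 2.66%, 1.42% and 1.90%, a rise in both genotypes (0.35 and 0.43), so the direction in ΔIkE120 cells depended on the unit counted. In 4 of the 14 genes the share was higher with stimulation in both genotypes and in 1 lower, a median log2 ratio of 0.33. Of all 1638 protein-coding genes over 1 Mb away, 635 (38.8%) were higher and 282 (17.2%) lower in both genotypes, with a median of 0.21. The genes higher in both were *Rel*, which encodes an NF-κB subunit (30, 34, 34 and 39 covered fragments), the cytokine genes *Il4* (4, 15, 7 and 10) and *Il13* (3, 10, 8 and 9), and *Tbx21*, which encodes T-bet (1, 1, 2 and 6), and the gene lower in both was *Csf2* (10, 8, 9 and 8). *Il4* and *Il13* are neighbours whose windows share fragments. At these 2 genes, and not at *Rel*, *Tbx21* or *Csf2*, both stimulated counts of covered fragments were above both unstimulated counts. The remaining genes of the list split by genotype. Among them was *Il5*, whose window overlaps that of *Il13* (3, 10, 14 and 8 covered fragments; log2 ratios 1.83 in wt and -0.89 in ΔIkE120 cells). In reads the *Csf2* window was higher with stimulation in both genotypes (327, 1187, 693 and 1434). The *Rel* window was lower in reads in wt cells (7332 and 6081), and those of *Il4*, *Il13* and *Tbx21* were higher in both genotypes.

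Windows of 9 T-lineage genes held 112, 99, 122 and 150 covered fragments (2.21%, 2.32%, 2.35% and 2.65%; log2 ratios 0.07 and 0.17). The 4 shares differed little, and so did those of reads (2.11%, 2.07%, 1.94% and 2.13%, with log2 ratios of -0.03 and 0.14). Of the 9 genes 3 were higher and 4 lower in both genotypes, with a median of -0.08. Those higher included *Tcf7*, a factor of T-lineage commitment (16, 16, 16 and 24), and *Rara*, a retinoic acid receptor gene (5, 6, 6 and 9). The wt counts of *Tcf7*, like those of *Tbx21*, did not change, so both genes were higher in wt cells only as a share. Lower were the neighbours *Stat3* (6, 3, 9 and 5), *Stat5a* (7, 3, 7 and 4) and *Stat5b* (6, 4, 7 and 4), which encode cytokine signal transducers and share fragments, and the Ikaros family gene *Ikzf3* (5, 4, 5 and 5). The 4 lower genes are 44.4% of the list, against 17.2% of all genes, and 3 of them share windows.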

How the data were processed

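The deposited 4C files hold raw read counts per DpnII fragment of mm9 chromosome 11, made by the authors by mapping reads (Bowtie 1.0.0 in the submitters' processing notes) and summing them per fragment. The notes list GRCm38, while the 4C methods name mm9, and 100% of the positions match mm9 DpnII fragments. In all 2 fragments next to the bait were not listed in every file and were dropped. Reads over 15 kb from the bait were the library size. Tiles (20 kb, to 1 Mb, at least 10 covered fragments in all) and 1-Mb bins were tested with edgeR 4.0.16 (quasi-likelihood, ~ genotype + state, 1 residual degree of freedom, Benjamini-Hochberg, threshold 0.05), with DESeq2 1.42.0 and limma 3.58.1 as alternatives in R 4.3.3. The fits were tested on simulated data. Simulated tiles had less spread between libraries than the real ones and larger changes than most of them, so that test does not describe the fits at the real spread. Log2 ratios of tiles used shares with 1 RPM added (reads scaled to library size), and those of covered fragments in bins and gene windows had 0.5 added. Intervals are exact binomial (Clopper-Pearson).

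Alternatives were TMM and DESeq2 size factors, no filter, covered fragments, reads capped at the 99th percentile and quantile normalization. Others were no genotype block, moved or 40-kb tiles, other windows and thinning. A library was also left out, in fits without the genotype block. Scaling to reads from 15 kb to 1 Mb, and leaving out fragments under 1% of the other library, were chosen after seeing the data, as were thinning and a minimum of 3 reads for the share near gene starts. Tiles named are those called by edgeR, up to 5 per direction with the largest mean log2 ratio of the same sign in both genotypes, and those with an active DHS. The tiles from 11443521 and 11663521 were outside this rule and were named after their values were seen. Bins named are those called and up to 3 per direction with at least 100 covered fragments. Genes named are those of fixed lists and of named tiles, and sequences are up to 4 DHSs in named tiles. The libraries and lists were chosen with earlier results of these data known. The values of 1 listed gene are not reported here.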

Additional observations from a re-analysis of the deposited data

Results flagged for a closer look

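In 2 distance classes the genotypes moved in opposite directions with stimulation. From 250 to 500 kb from the bait the log2 ratio of the read share was -0.29 in wt and 0.25 in ΔIkE120 cells, a difference of 0.54. From 500 kb to 1 Mb it was -0.23 in wt and 0.37 in ΔIkE120 cells, a difference of 0.59. As shares of covered fragments the classes differed. From 250 to 500 kb the genotypes again moved in opposite directions (-0.17 in wt and 0.05 in ΔIkE120 cells), and from 500 kb to 1 Mb both fell (-0.26 and -0.05). With 1 library for each genotype and state, the difference was not tested in either class.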

How the results depend on the processing

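The rise of the share over 10 Mb kept its direction and size in reads when reads were capped, when 30 kb around the bait were left out and without fragments under 1% of the other library. It did so in covered fragments with at least 3 reads, after thinning and without those fragments. From 3 to 10 Mb covered fragments fell in both genotypes and reads rose in wt cells. When reads were counted, which carry PCR copies, the share near gene starts over 1 Mb away had a mean log2 ratio of 0.37. The ratio was then 0.53 in wt and 0.22 in ΔIkE120 cells. The read shares were 19.3%, 27.8%, 24.8% and 28.8%, so the wt unstimulated library was below the 21.9% of all fragments. The cause was not tested. The rise at IkE180 kept its direction in both genotypes in reads under each scaling and window run (0.03 in ΔIkE120 cells with capped reads). For covered fragments it was 0.25 in wt and -0.10 in ΔIkE120 cells, the same as at IkE120, since nearly all fragments of both windows were covered.

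The count of tiles changed 1.5-fold in the same direction was 3 with covered fragments in place of reads, and from 20 to 27 under the other alternatives, the ones chosen after seeing the data included. Its split into higher and lower ranged from 11 and 12 (quantile normalization) to 20 and 7 (scaled to reads from 15 kb to 1 Mb). Tiles called numbered 6 with DESeq2 and 0 under every other alternative, leaving out a library included (0 to 0). Bins called numbered 3 with TMM factors, 2 without fragments under 1% (chosen after seeing the data), and 0 to 2 when a library was left out. A fit without 1 library had no genotype block, and it assumes that the lone library of a side varies like the others. The cause was not tested.

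The mean log2 ratio at IkE120 was -0.28 in 5-kb windows, -0.11 after quantile normalization (0.06 in wt and -0.28 in ΔIkE120 cells), -0.23 scaled to reads from 15 kb to 1 Mb (chosen after seeing the data), and reversed to 0.074 for covered fragments, of which nearly all in the window were covered. The mean ratio at IkE+15 was 0.11, and it reversed to -0.061 in 5-kb windows and to -0.12 with capped reads. It was 0.29 both after quantile normalization and when scaled to reads from 15 kb to 1 Mb. For covered fragments the ratio of *Gm11998* reversed to 0.060 and that of *Fignl1* to -0.019. The cause was not tested.

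Limits: each genotype and state had 1 library, the ΔIkE120 cells were 1 clone, and depth and complexity differed between libraries. Stimulation and library preparation cannot be told apart within a genotype. Read shares carry PCR copies, and shares must sum to 100%, so a rise in 1 class lowers the others. Near the bait covered fragments are saturated, and beyond 250 kb tiles hold few of them.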
